A study of Mus musculus with 4 samples.

Results

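The sites described here are the m6A sites of genes that carried at least 6 sites in the Abro1 knockout list and at least 6 in the wild-type list, called many-site genes below. They were found by counting the sites listed under each gene symbol in each list. The rule kept 140 of the 6660 genes with a site in either list, and of the 4955 genes with a site in both. These genes held 1206 of the 10388 sites of the knockout list and 1213 of the 10814 sites of the wild-type list. The members were thus chosen on the number of sites, and everything below that comes from the same 2 lists is given as a description, without a test.

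The series set m6A in hearts of Abro1 knockout mice against wild-type hearts, both on a C57BL/6 background. Abro1 (current symbol Abraxas2) holds together a deubiquitinase complex of the cytoplasm. Each list came from methylated RNA immunoprecipitation sequencing (MeRIP-seq) of 1 immunoprecipitate, pulled down with an antibody against m6A, and 1 input library without the pull-down. The labels give neither the age of the mice, the kind of knockout allele, nor the number of hearts behind a library, and without replicates the spread between animals is unknown.

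N6-methyladenosine (m6A) is the main internal mark of mRNA. It is placed on nascent RNA by a methyltransferase complex built around METTL3 and METTL14, typically at an adenosine within a GGAC-like motif, and reader proteins that bind it alter splicing, translation and decay. In most mRNAs it gathers near the stop codon and in long internal exons, and the related cap-adjacent mark m6Am, which antibodies against m6A also bind, sits at the first transcribed base.

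Some of the strongest sites of the many-site genes began exactly at an annotated start of transcription. Of the 140 genes, 109 had an entry in a RefSeq table of start sites for GRCm38.p6, which is the mm10 assembly that the lists use. A site covered at least part of the first 50 transcribed bases in 62 of these genes in the knockout list and in 61 in the wild-type list, and in 55 genes in both. In 37 genes a site of both lists began at the RefSeq start itself, to the base. That start is an annotation, and where transcription began in these hearts was not measured. The first 30 transcribed bases are shown for the 6 of these with the largest fold in either list, the fold being the enrichment of immunoprecipitate over input that the authors' peak caller gave. They are written 5′ to 3′ from RefSeq, and capitals mark GGAC.
Rrbp1: gaaggcaggaggcggcgatcccggcggagg
Eif5b: acctggccggcggctctactggagacgctc
Atp2b1: gcagcgtgagtagggagccccggctggtgg
Upf2: gagagcggcggggggaggggaggggagccc
Itsn2: ttcctgcggaggccgcggccgccatgttgt
Aff1: gaggcggtgctgaGGACacagagctgagga

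These stretches lie at chr2:144011234-144011263 on the minus strand for Rrbp1, a ribosome receptor of the endoplasmic reticulum, and at chr1:37998010-37998039 on the plus strand for Eif5b, which joins the ribosomal subunits at the start of translation. The others, all on the plus strand, lie at chr10:98915152-98915181 for Atp2b1, a calcium pump of the plasma membrane, chr2:5951469-5951498 for Upf2, a factor of nonsense-mediated decay, chr12:4593008-4593037 for Itsn2, an endocytic scaffold, and chr5:103754162-103754191 for Aff1, a subunit of the super elongation complex. The Rrbp1 site ran over 265 bases and had a fold of 177 in the knockout list, against 234 in the wild-type list. The Eif5b site of 315 bases had 99.7 and 132 in the knockout and wild-type lists, and the Atp2b1 site of 220 bases 68.1 and 101. Upf2 had 50.7 in the knockout list and 88.1 in the wild-type list at a site of 85 bases, Itsn2 had 16.8 and 46.0 at 225 bases, and Aff1 had 42.3 and 36.0 at 184 bases. Of these 6 start sites, 5 had the lower fold in the knockout list, and Aff1 had the higher fold there. Among all sites with the same interval in both lists, 66.8% of members and 73.7% of other sites had the lower fold in the knockout list. The letters GGAC, searched on the transcribed strand, were present in the first 50 bases of 6 of the 37 genes (16.2%), against 18.9% of the 32851 windows of the same length in the RefSeq table. On the other strand they were present in 6 of the 37 and in 17.4% of all windows. The start site of Rrbp1 had the second largest fold of all member sites in the knockout list and the largest in the wild-type list.

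The number of sites per gene was close to equal in the lists. It was the same in 51 of the 140 genes, larger in the knockout list in 47 and larger in the wild-type list in 42, and it differed by at most 1 in 107 genes (76.4%). Trdn, which encodes triadin of the cardiac calcium release complex, had 22 sites in the knockout list and 23 in the wild-type list. Ktn1, the kinesin-binding kinectin of the endoplasmic reticulum, had 20 and 19, Myo18b, a myosin of striated muscle, had 19 and 19, and Pcnt, the centrosomal scaffold pericentrin, had 19 and 18. In 32 genes both lists held 10 sites or more.

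In 9 genes the numbers differed by 3 or more. Hip1, an endocytic adaptor that binds clathrin and actin, had 11 sites in the knockout list and 6 in the wild-type list. Rad50, of the DNA break repair complex with Mre11, had 10 and 6, and Myh10, a non-muscle myosin heavy chain, had 14 and 11. The other 6 genes had more sites in the wild-type list. Among them, Golgb1, the Golgi tether giantin, had 6 in the knockout list and 10 in the wild-type list, Rbm33, an RNA-binding protein, had 8 and 12, and Soga1 had 7 and 11.

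**Figure D1:**
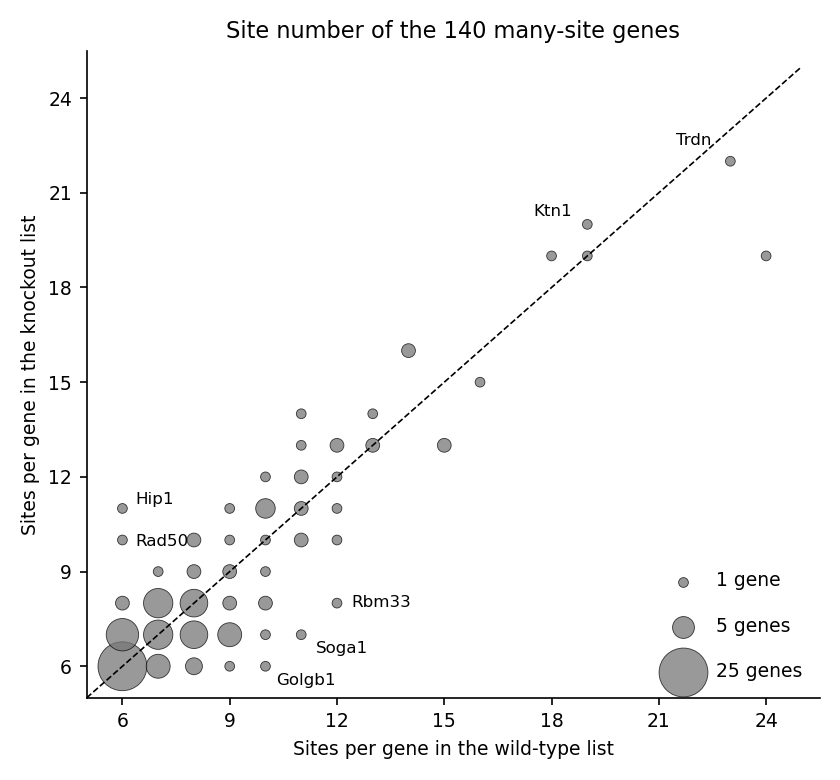
Number of sites per gene in the knockout list (vertical) and the wild-type list (horizontal) for the 140 many-site genes. The area of a circle gives the number of genes at that point, the largest being the 25 genes with 6 sites in each list, and the dashed line marks equal numbers. Trdn lies at the upper right, and Hip1 and Rad50 lie furthest above the line.

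At the lower edge of the rule, 51 genes had exactly 6 sites in the list with fewer, and 25 had 6 in both. Of the 182 genes with at least 6 sites in the knockout list, 140 (76.9%) also had 6 in the wild-type list. Of the 180 such genes in the wild-type list, 140 (77.8%) also had 6 in the knockout list. Just outside, 58 genes had 5 sites in one list and 6 or more in the other. Cep290, a protein of the ciliary transition zone, and Ehbp1, which links endocytosis to actin, each had 9 in the knockout list and 5 in the wild-type list, whereas Ankrd17 had 5 and 7.

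The many-site genes were longer on the genome than other genes with sites. Their median annotated span was 102.5 kb, with quartiles of 56.8 and 144 kb, against a median of 29.9 kb over the other 6442 matched genes. Of 12 lists of genes by function, linkers between cytoskeletal systems had the largest share, with 10 many-site genes of the 37 that had a site in both lists (27.0%). They included Dst, which ties intermediate filaments to adhesion sites, Macf1, which ties microtubules to actin, Syne2, which ties the nuclear envelope to actin, Utrn, a dystrophin relative, and Clip1, a microtubule plus-end protein. Coiled-coil proteins of the centrosome, Golgi and endoplasmic reticulum had 12 of 58 (20.7%), among them Ktn1, Pcnt, Akap9 and Rrbp1. Chromatin regulators had 18 of 98 (18.4%), among them the remodelling ATPase Smarca2, the nucleosome remodelling subunit Bptf and the cohesin loader Nipbl. Over the 4955 genes present in both lists the share was 2.83%. No interval or test is attached to these shares, since the members were chosen with results known.

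The list of splicing and RNA-binding proteins had 10 many-site genes of 70 (14.3%), among them the translation factors Eif4g3, Eif5b and Eif3a. It did not hold Cwc15 and Cwc25, splicing proteins that are many-site genes and were in none of the lists. The share is thus not that of all splicing genes. Of 34 sarcomere and Z-disc genes 4 qualified (11.8%), among them Nebl, Nexn and Lrrfip1, and of 15 genes of the dyad and calcium handling 2 did (13.3%), Trdn and Myh14, of which Myh14 encodes a non-muscle myosin heavy chain and is no dyad gene. The m6A machinery had 2 of 16 (12.5%), Zc3h13 and Prrc2b. The ubiquitin system, to which Abro1 itself belongs, had 2 of 51 (3.92%), the deubiquitinases Usp8 and Usp47, with 7 and 6 sites in the knockout list, against 8 and 7 in the wild-type list. Signalling kinases, phosphatases and GTPase regulators had 3 of 72 (4.17%) and matrix and adhesion genes 3 of 57 (5.26%). None of the 109 transcription factors and none of the 164 zinc finger genes named Zfp with a site in both lists was a many-site gene. Of the 140 genes, 66 were in at least 1 of the lists and 74 in none.

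The sites of the many-site genes were short. Their median length was 162 bases in the knockout list (95% interval 157 to 169, n = 1206) and 162 in the wild-type list (158 to 170, n = 1213). All other sites had medians of 429 bases (415 to 445) in the knockout list and 466 (447 to 484) in the wild-type list. A length of 200 bases or less was found for 62.5% of the members in the knockout list, against 30.2% of its other sites, and for 62.2% in the wild-type list, against 29%. Sites of 1000 bases or more made up 5.80% of the members in the knockout list and 6.43% in the wild-type list, against 26.9% and 28.4% of the other sites of those lists.

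**Figure D2:**
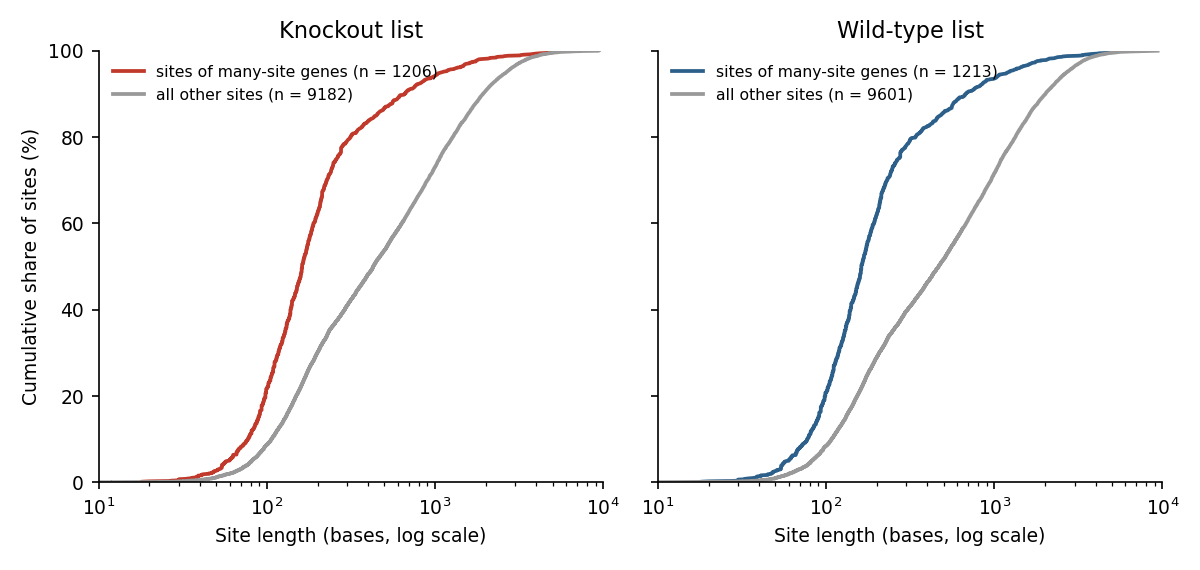
Cumulative share of sites (vertical, in percent) by site length in bases (horizontal, log scale) in the knockout list (left) and the wild-type list (right). The coloured curve is for sites of many-site genes and the grey curve for all other sites. The coloured curves cross the 50% line at 162 bases in both lists, against 429 for the other sites of the knockout list and 466 for those of the wild-type list.

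Within a gene, length differed with the place of the site. Internal sites had a median of 151 bases in the knockout list and 153 in the wild-type list. The sites nearest the 5′ end of each gene had medians of 242 and 268.5 bases in the knockout and wild-type lists, and those nearest the 3′ end 230 and 240. The longest site of a gene was an internal one in 66 genes of each list (47.1%), its last in 46 genes of the knockout list and 44 of the wild-type list, and its first in 28 and 30. Internal sites were 926 of the 1206 members in the knockout list and 933 of the 1213 in the wild-type list. They thus held the longest site less often than their share of all sites, and first and last sites more often. A few single sites ran over several kilobases. Bod1l, a protein that protects stalled replication forks, had a site of 5953 bases, Macf1 one of 5361, Dst one of 5292, Golgb1 one of 5129 and Tacc2, a centrosomal coiled-coil protein, one of 5121. All 5 had the same interval in both lists. The Golgb1 site, at chr16:36911872-36917000 on the plus strand, had a fold of 24.6 in the knockout list and 23.9 in the wild-type list, against 5.19 and 6.24 for the Macf1 site, so that very long sites were found at both low and high enrichment.

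The shortest sites, of 18 bases, were in Trdn and in Lrrfip1, a protein that binds the actin regulator Flightless. Trdn had the shortest median length of all 140 genes, 42 bases in the knockout list and 45 in the wild-type list. Its 20 shared sites had the same interval in both, and its largest fold was 182 in the knockout list and 146 in the wild-type list. A site this short cannot hold a whole read, since reads were 150 bases long per the labels' protocols. The lists do not say how reads that extend beyond an interval, or that are spliced across it, entered the fold.

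Lengths that are a multiple of 3 were more frequent than among the other sites. They made up 44.7% of the members in the knockout list (41.9 to 47.6%), against 36.8% of its other sites (35.8 to 37.8%), and 45.7% in the wild-type list (42.8 to 48.5%), against 37.2% (36.2 to 38.1%). Lengths without any relation to the number 3 would give 33.3%. The share was 46.8% for internal sites of the knockout list and 47.3% for those of the wild-type list, and 35% and 37.9% for the first site of each gene. Without Trdn it was 43.7% in the knockout list and 44.6% in the wild-type list. Among sites of 300 bases or less it was 46.4% of knockout and 47.2% of wild-type members, against 39.1% and 40.3% of other sites. Genes with 6 or 7 sites did not have a higher share than genes with 4 or 5, as set out by class below. A stretch of coding RNA whose length is a multiple of 3 can be skipped without a shift of the reading frame. Whether a site coincides with an exon, or lies in coding sequence or an untranslated region, was not determined, because no exon annotation was used here.

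Some genes carried the pattern throughout. All 22 knockout and 23 wild-type sites of Trdn had such a length. So did all 12 knockout and 11 wild-type sites of Col6a6, a chain of collagen VI, with 54-base and 63-base sites among them. Nebl, the Z-disc protein nebulette, which is built of short repeats, had sites of 105, 108, 111, 111 and 111 bases in a row in both lists. At the other end, Eif3a, a translation initiation factor, Enah, an actin regulator, and Cwc25, a splicing factor, had no site whose length is a multiple of 3 in either list.

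Neighbouring sites of a gene lay kilobases apart on the genome. The median gap, from the end of one site to the start of the next, was 3576 bases in the knockout list (3188 to 4043, n = 1066 gaps) and 3687 in the wild-type list (3299 to 4098, n = 1073). Over all other genes with at least a pair of sites the medians were 6715 and 6990 bases in the knockout and wild-type lists. Since the members were chosen for many sites, shorter gaps were favoured by the rule and the difference says nothing beyond it. By the number of sites in the list with fewer, the knockout medians were 7229.5 bases at 3 sites, 4669.5 at 4 or 5 and 3923 at 6 or 7. The wild-type medians of these classes were 7810, 4930 and 4041. These gaps are genomic and include introns, so they do not give the spacing along the mature RNA. Gaps of 1000 to 5000 bases made up 50% in the knockout list and 49.6% in the wild-type list, gaps under 1000 bases 9.47% and 9.23%, and gaps of 10000 bases or more 23.5% and 23.6%. Of the gaps, 795 had the same edges in both lists, which is 74.6% of those in the knockout list and 74.1% of those in the wild-type list.

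The gene with the most sites per 10 kb, 5.99, was Cwc15, which encodes a small spliceosome component. Its 6 sites in each list lay within 7.35 kb of a 10.02 kb gene on chromosome 9. All 6 had the same interval in both lists, with folds of 6.37, 4.07, 8.58, 7.76, 15.5 and 8.33 in the knockout list from the 5′ end on, against 6.33, 7.52, 9.58, 7.74, 10.4 and 9.19 in the wild-type list. The fourth site had nearly the same fold in both lists, the second was lower in the knockout list, and the fifth was higher there. Over the 140 genes the median density was 0.906 sites per 10 kb in the knockout list and 0.839 in the wild-type list. By median gap the closest sites were those of Ccdc186, with 917 bases in both lists, against 1134 in Cwc15. The shortest gap, of 76 bases, was in Fam133b in the knockout list, between sites of 219 and 942 bases that the wild-type list gave as 1 site of 1236 bases.

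The widest gaps were in Tnik, a kinase of the Wnt and actin pathways, with 291228 bases in the wild-type list, in Arid1b, a chromatin remodelling subunit, with 234566 in the knockout list and 234573 in the wild-type list, in Utrn, with 149941 and 226925 in the knockout and wild-type lists, and in Macf1, with 188098 in both. The gap in Tnik arose from 1 site far upstream in the wild-type list, so its sites extended over 66.1 kb in the knockout list and 333 kb in the wild-type list. In the typical many-site gene the sites extended over 65.0 kb in the knockout list and 65.3 kb in the wild-type list, and covered 2.52% and 2.74% of the gene span.

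**Figure D3:**
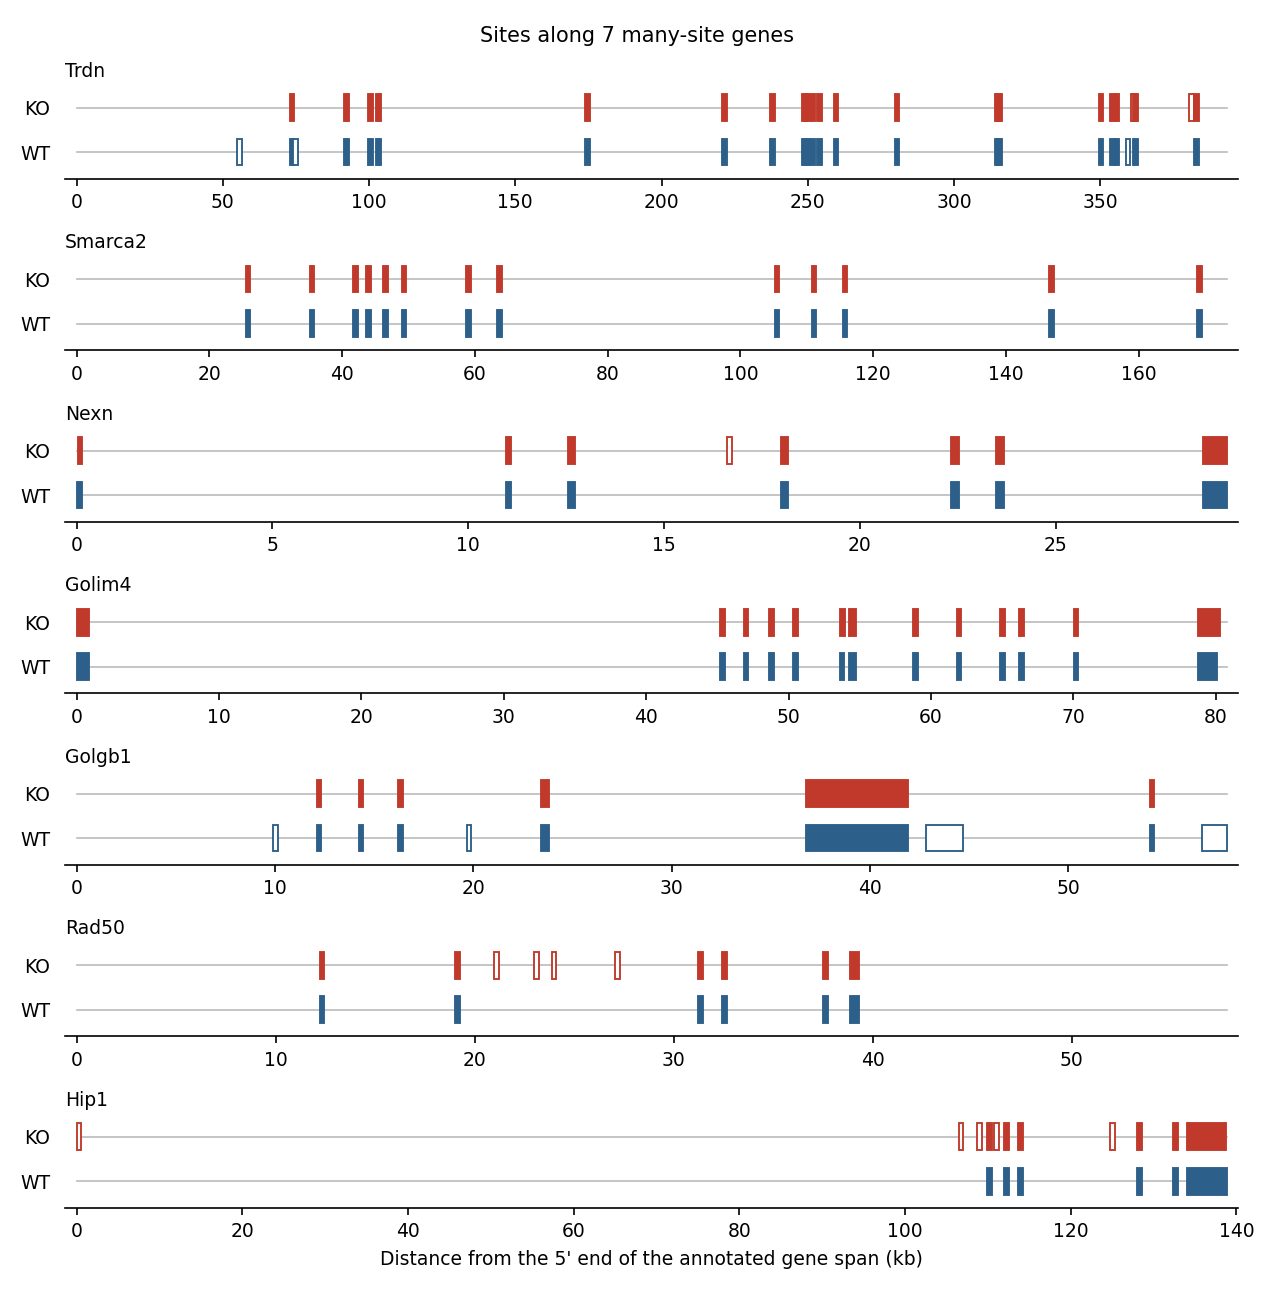
Sites of 7 many-site genes along the annotated gene span, as distance in kb from its 5′ end, with the knockout list (KO, red) above the wild-type list (WT, blue) for each gene. Filled boxes overlap a site of the other list and open boxes do not, and boxes narrower than 0.4% of the span are drawn at that width. The 13 sites of Smarca2 match in all cases, the 5129-base site of Golgb1 stands in both lists, and the unmatched sites of Rad50 and Hip1 lie in the knockout list.

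Along the gene, the sites of many-site genes were weighted toward the 3′ side without the 5′ peak of other genes. When each gene span was divided into 5 equal parts from the 5′ end, they held 12, 14.1, 17.1, 28.0 and 28.8% of the sites in the knockout list, and 12, 14.4, 17.0, 27.0 and 29.5% in the wild-type list. The other sites fell at 28.0, 9.47, 12, 14.9 and 35.6% in the knockout list and at 27.2, 9.73, 12, 14.6 and 36.5% in the wild-type list. A gene with a single site can only fill 1 of the parts, and the members also had longer spans, with a median of 102.5 kb against 29.9 kb. Whether the difference in the first and last parts goes with span or with the number of sites that chose the members was not tested.

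Length and the share of lengths that are a multiple of 3 were also set out by class for the 4955 genes present in both lists, sorted by the number of sites in the list with fewer. Median length in the knockout list went down over the classes of 1, 2, 3, 4 or 5, 6 or 7, 8 to 11, and 12 or more sites as 727, 409, 255, 194, 164, 158.5 and 162 bases. In the wild-type list it was 726, 405, 284, 199, 164, 160.5 and 162 bases. Lengths were thus level beyond 6 sites. The share of lengths that are a multiple of 3 was 40.6% at 4 or 5 sites in the knockout list and 41.5% in the wild-type list. At 6 or 7 sites it was 39.1% and 39.7%, at 8 to 11 it was 47.6% and 49.5%, and at 12 or more 53.6% and 54.4%. The higher share was thus seen in the classes from 8 sites up, and not at 6 or 7 sites beside 4 or 5. Overlap with the other list was 85.3% in the class of 1 site and between 87.6 and 91.6% in the other classes of the knockout list, without a steady order. In the wild-type list it was 82.2% at 1 site and between 85.7 and 90.9% in the others.

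**Figure D4:**
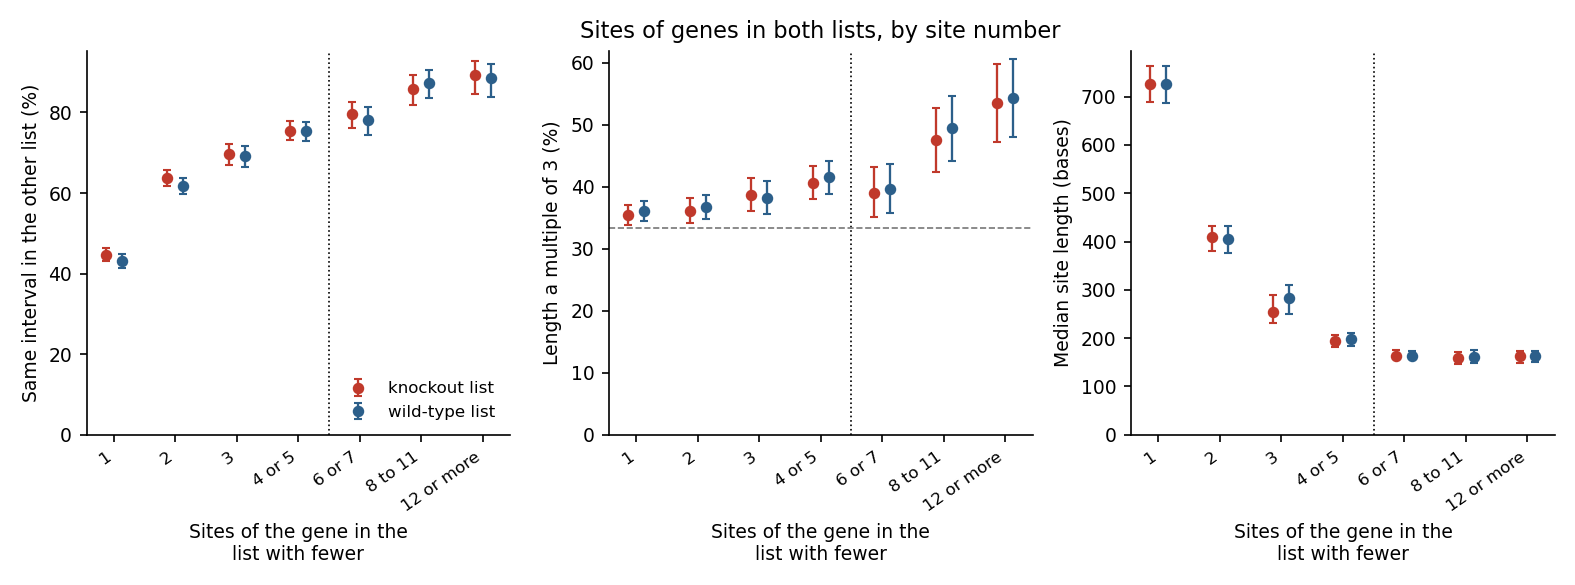
Share of sites with the same interval in the other list, share with a length that is a multiple of 3 (both in percent) and median site length in bases, by the number of sites the gene had in the list with fewer, for the knockout list (red, left of each pair) and the wild-type list (blue). Bars are 95% intervals for counting error, the dotted line separates genes below and at 6 sites, and the dashed line marks 33.3%. Identical intervals made up 44.7% of knockout sites in genes with 1 site and 89.2% in genes with 12 or more.

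Of the 1206 member sites of the knockout list, 1080 (89.6%, 87.7 to 91.2%) overlapped a site of the wild-type list by at least 1 base on the same strand, where 80.4% of the whole knockout list did. Of the 1213 member sites of the wild-type list, 1080 (89.0%, 87.1 to 90.7%) overlapped a site of the knockout list, where 77.2% of that whole list did. The sites without an overlap were 126 (10.4%) in the knockout list, where 19.6% of the whole list had none, and 133 (11%) in the wild-type list, where 22.8% had none. Since a gene had to hold 6 sites in both lists, overlap was favoured by the rule and the difference from the background says nothing beyond it. Overlap was nearly always exact. The same start and end were found for 1007 sites, or 93.2% of the overlapping ones, 34 shared only the start coordinate, 38 only the end coordinate, and 1 neither. Identical intervals made up 83.5% of the members in the knockout list and 83.0% in the wild-type list, against 53.3% and 51.0% of the other sites of those lists. Among other sites of genes present in both lists, 58.7% of knockout and 57.2% of wild-type sites were identical, and 87.0% and 84.8% overlapped. Identity also went with length. In the knockout list it was 89.0% for members of over 100 to 200 bases and 73.8% for those over 500. For other knockout sites it was 70.5% and 40.4%.

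Overlap went with the score, a measure that grows as the peak caller's p gets smaller, with 10 units for each power of 10 and a lower limit of 50 in these lists. Of the members with a score under 100, 59.4% in the knockout list and 60.8% in the wild-type list overlapped a site of the other list, against 48.8% and 45% of other sites in that range. At scores of 300 to 1000, 96.2% of knockout and 97.8% of wild-type members did, against 94.2% and 91.6% of other sites. The other sites include those of genes absent from the other list, which the rule shut out. The difference between members and other sites in a score range was therefore favoured by the rule and says nothing beyond it. The members without an overlap had a median score of 98.2 in the knockout list and 84.0 in the wild-type list, while those with one had 623 and 538. Their median fold was 5.09 and 5.93 in the knockout and wild-type lists, against 9.36 and 10.6 for sites with an overlap. The sites found in one list alone thus had lower scores and folds than the shared ones.

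A few of them were strong. Eif3a had a site of 200 bases at chr19:60763065-60763264 on the minus strand, with a fold of 40.3 in the knockout list and no site there in the wild-type list, although its 5 other sites upstream had the same intervals in both. Cdk11b, a kinase linked to splicing and transcription, had a site of 123 bases with a fold of 33.4 in the knockout list alone. In the wild-type list alone, Trdn had a site of 33 bases with a fold of 87.7, Cgnl1, the junction protein paracingulin, one of 153 bases with 46.6, and Golgb1 one of 1888 bases with 9.75, just downstream of its longest site. Absence from a list shows only that no site was listed there, and the depth at these places is unknown.

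In 38 genes every site overlapped a site of the other list. The 13 sites of Smarca2 in each list, and the 11 each of R3hdm2 and Rufy1, an endosomal adaptor, all had identical intervals. Golim4, a Golgi membrane protein, had 13 in each list with 11 identical. The lowest share was in Utrn, with 5 of 10 knockout sites and 5 of 8 wild-type sites overlapping, followed by Mdn1, a ribosome assembly ATPase, with 4 of 6 and 4 of 7. The unmatched Utrn sites had folds of 3.33, 5.70, 3.26, 5.02 and 5.64 in the knockout list and 7.45, 5.53 and 4.65 in the wild-type list, while its matched sites ran from 4.49 to 9.02 and from 4.94 to 12.7 in the knockout and wild-type lists. The ranges of matched and unmatched sites thus overlapped in both lists.

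The extra knockout sites of Rad50 lay in one stretch. Between its second shared site and the next shared one, where the wild-type list had none, the knockout list held 4 sites of 158, 176, 238 and 190 bases with folds of 5.25, 9.54, 8.75 and 9.07. At the 2 shared sites of 114 and 128 bases downstream, in contrast, the fold was 19.0 and 9.69 in the knockout list, against 46.2 and 34.2 in the wild-type list. Hip1 had 5 sites in the knockout list alone, with folds of 8.77, 5.45, 6.87, 6.20 and 5.0, the first of them at the 5′ end of the gene.

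Enrichment could be set side by side at the 1007 intervals that were identical in both lists. The median fold there was 9.25 in the knockout list and 10.6 in the wild-type list. The median of the knockout over wild-type ratio was 0.863 (0.841 to 0.886), and the fold was lower in the knockout list at 673 sites (66.8%). At the 4897 identical intervals of other genes the median ratio was 0.826 and 73.7% were lower in the knockout list, so a lower fold was a feature of the whole list. With 1 immunoprecipitate per genotype, genotype and library cannot be told apart. Across the 1007 sites the folds of the lists had a Spearman correlation of 0.858, given as a description, since the sites share their libraries. The ratio was above 2 at 15 sites and below 0.5 at 55.

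**Figure D5:**
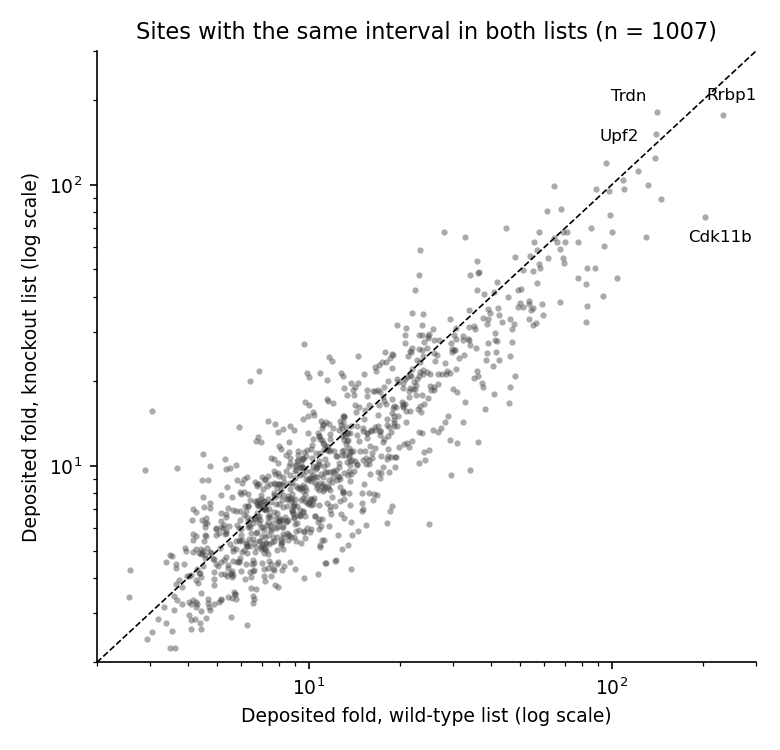
Deposited fold of the 1007 member sites with the same interval in both lists, in the knockout list (vertical) and the wild-type list (horizontal), both on log scales. The dashed line marks equal fold, and 673 of the points lie below it. Labels mark the site with the largest knockout fold in Trdn, Rrbp1, Upf2 and Cdk11b.

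The strongest sites kept their place within many genes. In 101 of the 140 genes (72.1%) the site with the largest fold in the knockout list overlapped the one with the largest fold in the wild-type list. That largest fold was higher in the knockout list in 37 genes and higher in the wild-type list in 103. Its median was 26 in the knockout list and 29.96 in the wild-type list. In the 96 genes with at least 6 identical intervals, the order of the folds along the gene had a median rank correlation of 0.838 between the lists. The site with the largest fold was an internal one in 106 genes of the knockout list (75.7%) and 101 of the wild-type list (72.1%), the first one in 22 and 28, and the last one in 12 and 11. Internal sites were 926 of the 1206 members in the knockout list and 933 of the 1213 in the wild-type list, so their share of the strongest sites was near their share of all sites. First and last sites, 140 of each in a list, were not alike. The first was the strongest in 15.7% of genes in the knockout list (10.1 to 22.8%) and 20% in the wild-type list (13.7 to 27.6%). The last was the strongest in 8.57% and 7.86%.

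Zc3h13, a subunit of the m6A methyltransferase complex, shows how uneven the folds were within a gene. Its site of 601 bases at chr14:75327544-75328144 on the plus strand had a fold of 125 in the knockout list and 139 in the wild-type list, and the next, of 1191 bases, had 120 and 95.7. Its other 9 sites with identical intervals had folds of 5.61 to 17.99 in the knockout list and of 6.66 to 41.0 in the wild-type list. Prrc2b, an RNA-binding protein listed with the m6A machinery, had the same 6 intervals in both lists, and its folds spanned only 4.48 to 14.3 in the knockout list and 3.66 to 11.5 in the wild-type list. Upf2 had its largest fold at a site of 380 bases, with 151 in the knockout list and 140 in the wild-type list, ahead of the start site given above.

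Among heart muscle genes, Nexn, the Z-disc actin-binding protein nexilin, had high folds at most of its sites. Its 7 sites shared by the lists had folds of 45.9, 36.3, 67.8, 82.1, 96.8, 80.8 and 24.9 in the knockout list from the 5′ end on, against 59.7, 39.1, 69.3, 68.0, 109, 61.4 and 32.6 in the wild-type list. A further site of 42 bases, in the knockout list alone, had 5.69. Of the 7 shared sites, 2 were higher in the knockout list and 5 in the wild-type list. Nebl stayed between 3.55 and 12.5 in the knockout list and between 6.14 and 12.5 in the wild-type list. In Golim4 the last sites before the 3′ end led, with 64.5 and 94.7 at the sites of 110 and 168 bases in the knockout list, against 64.6 and 97.8 in the wild-type list, while its first site of 838 bases had 6.15 and 15.4 in the knockout and wild-type lists. Cdk11b held the second largest fold among the members in the wild-type list, at a site of 137 bases with a fold of 76.6 in the knockout list and 203 in the wild-type list.

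Several facts of the lists bear on these values. Abro1 itself had no site in either list, so the lists do not check the genotype. Of 12 cardiomyocyte marker genes 6 had a site in the knockout list and 7 in the wild-type list, and of the markers of fibroblasts, endothelium, macrophages, mural cells and nerve only Myh11, a smooth muscle myosin, was a many-site gene, with 14 and 13 sites in the knockout and wild-type lists. In whole hearts, fewer cells of a type and less RNA per cell cannot be told apart, and which cells the sites come from was not tested. The deposited false discovery rate was 100% for 99.8% of the members in the knockout list and 73.5% in the wild-type list. Over the whole lists it was 100% for 99.97% of knockout sites and 82.9% of wild-type sites. The score stood at 3100 or more for 197 members of the knockout list (16.3%) and 196 of the wild-type list (16.2%). Over the whole lists the share of sites at such a score was 8.76% in the knockout list and 8.78% in the wild-type list. Members tied at exactly 3100 are left unranked by it, while some scored higher, up to 3228 in the knockout list and 3233 in the wild-type list. The library kit is named differently in the series' design text and in the extraction protocol, both naming a strand-keeping kit.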

How the data were processed

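Hearts of Abro1 knockout and wild-type mice gave 1 input and 1 m6A immunoprecipitate each, 4 libraries in all. The submitters' processing notes name HISAT2 2.0.4, cutadapt 1.9.3 and the mm10 build. Per the file headers, site names begin with MACS; which version and settings the caller had is not given in the sources used here. The authors deposited 1 list per genotype, made from input and immunoprecipitate together. The authors' fold is a linear ratio, immunoprecipitate to input, for each site. The score, per the file headers, is the log10 of p times minus 10. The authors' false discovery rate is a percent. The deposited site length equals end minus start. The lists hold no read counts, so depth is unknown.

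From these, sites were counted per gene symbol and compared with bedtools 2.31.1 (same strand, at least 1 bp), scipy 1.17.1, numpy 2.4.6, pandas 2.3.3 and Python 3.11.15, after tests on simulated data. Shares have exact (Clopper-Pearson) 95% intervals and medians order-statistic 95% intervals, which cover counting error only. With 1 list per genotype no test was made. Starts are 0-based in the files and are given 1-based. All 140 genes were matched to a RefSeq table for GRCm38.p6, 137 by gene ID and 3 by an older symbol; it gives spans and start sequences but no exons. A site was placed in its span by its midpoint.

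The members and lists were chosen with earlier results of these data known. The naming rule took the genes with the most sites, the smallest and largest overlap, gap and length, the largest folds, up to 4 genes per functional list, those at the threshold and those with the largest difference in site number. Bod1l, Cwc25, Eif3a, Enah, Itsn2, Macf1 and Nipbl were named after their values were seen. Alternatives were another minimum of sites (5 or 8), a score of at least 100, merged neighbours, other overlap and distance rules, and the score as measure of strength. Site sequences and exon positions were not analysed here, and a few genes that the naming rule gives are not reported here.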

Additional observations from a re-analysis of the deposited data

How the results depend on the processing

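The number of many-site genes follows the rule directly, with 231 genes at a minimum of 5 sites in each list and 54 at a minimum of 8, against 140 at 6. With only sites scoring at least 100, the share of wild-type member sites that overlap a knockout site was 91.5%, against 89.0%, and the share for knockout sites stayed within its counting interval. The share of genes whose strongest sites overlap was 83.6% with the score in place of the fold, against 72.1%. In 53 of the 140 genes several sites tie at the largest score in at least 1 list, any overlapping pair among the tied sites counts there, and the higher share does not speak for stability. The other 51 results under alternatives stayed within their counting intervals or within 1.5 times the count reported, and none reversed. The alternatives for lengths that are a multiple of 3, without Trdn or with sites of 300 bases or less only, were chosen after seeing the data. No paired analysis was possible because each genotype has 1 list and nothing was tested. Leaving out a replicate was likewise not possible. The lists give no read counts, so no limit of detection can be set for a site absent from a list, and sites near the lower score limit were the ones most often absent.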
